A study of Mus musculus with 6 samples.

Results

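The genes described here are 42 genes of the integrated stress response and the unfolded protein response, in cultured microglia with and without an induced Cre that targets Nr1d1, the gene of the circadian repressor REV-ERBα. They were chosen by name from a list of known members, with no rule on their values but with earlier results of these data known. All 42 were found among the 55487 genes counted. They fall into an ATF4 branch of 25 genes, which covers transcription factors, feedback genes, amino acid enzymes, amino acid transporters and tRNA synthetases, and a branch of 17 genes of the endoplasmic reticulum (ER) downstream of XBP1 and ATF6, which covers sensors, chaperones and degradation factors. The RNA came from cortical microglia shaken off mixed glia of pups at postnatal days 1 to 3 on a C57/Bl6J background. All 6 cultures were Nr1d1fl/fl, and the 3 labelled Cre+ carried CAG::CreERT2, a recombinase that enters the nucleus on 4-hydroxytamoxifen (4-OHT), while the 3 labelled Cre− did not. All 6 received 4-OHT at 1.5 μM for 2 days, so the drug was common to both groups and Cre was not. The CAG promoter is active in any cell type, so Cre was not limited to microglia in these cultures, and the floxed part of Nr1d1 is exons 3 to 5. The labels number the replicates and do not say that they came from separate litters, so p-values measure the spread between these libraries only.

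In the integrated stress response, kinases that sense ER stress, amino acid shortage, viral RNA or heme shortage phosphorylate the translation factor eIF2. General translation falls, while the mRNA of ATF4 is translated better, and ATF4 then induces genes for amino acid supply, tRNA charging and negative feedback. In the unfolded protein response, IRE1 splices the mRNA of XBP1 and ATF6 is cut in the Golgi, and both factors induce ER chaperones and degradation factors. Much of this control acts on translation, splicing and protein cleavage, which gene counts do not show, so the counts report on the mRNA of the targets. Microglia carry a large load of secreted and lysosomal proteins, and ER chaperones are among their abundant mRNAs.

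Between Cre+ and Cre− microglia, the levels of these genes were close together. Of the 42 genes, 40 passed the expression filter and 2 were called by the quasi-likelihood test of edgeR, with a Benjamini-Hochberg adjusted p of 0.05 or less over all 11429 genes tested. This is 5.00% of the members, beside 5.07% of all genes tested. Mthfd2 was the 1 member called higher, where 2.5% of all genes were called higher, and Eif4ebp1 the 1 called lower, where 2.56% were. The median log2 fold change was -0.02 over the 23 tested genes of the ATF4 branch and -0.01 over the 17 of the ER branch, beside 0.00 over all genes tested. The fold changes ran from -0.22 to 0.25, and their median size was 0.08, against 0.11 for all genes. For 39 of the 40 members the 95% interval of the log2 fold change, which is not adjusted for the number of genes, lay within 0.5 of 0, that is within a 1.41-fold change either way. The exception was Xbp1. Of all genes tested, 73.4% had such an interval, but they also varied more within groups. The median SD of the log2 level within groups was 0.12 over all genes tested and 0.09 over the members. The shares and median sizes were not compared at a like spread or level.

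Among the members, 13 of 40, or 32.5%, had an unadjusted p under 0.05, where 19.1% of all genes had one. The 3 Cre+ libraries lay outside the range of the 3 Cre− libraries for 12 of the 40 members, 8 higher and 4 lower, or 30.0% of them, where this held for 24.0% of all genes. The ATF4 branch supplied 8 of these genes and the ER branch 4. The coefficient of variation between cultures of one group was 10.0% at the common dispersion.

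**Figure D1:**
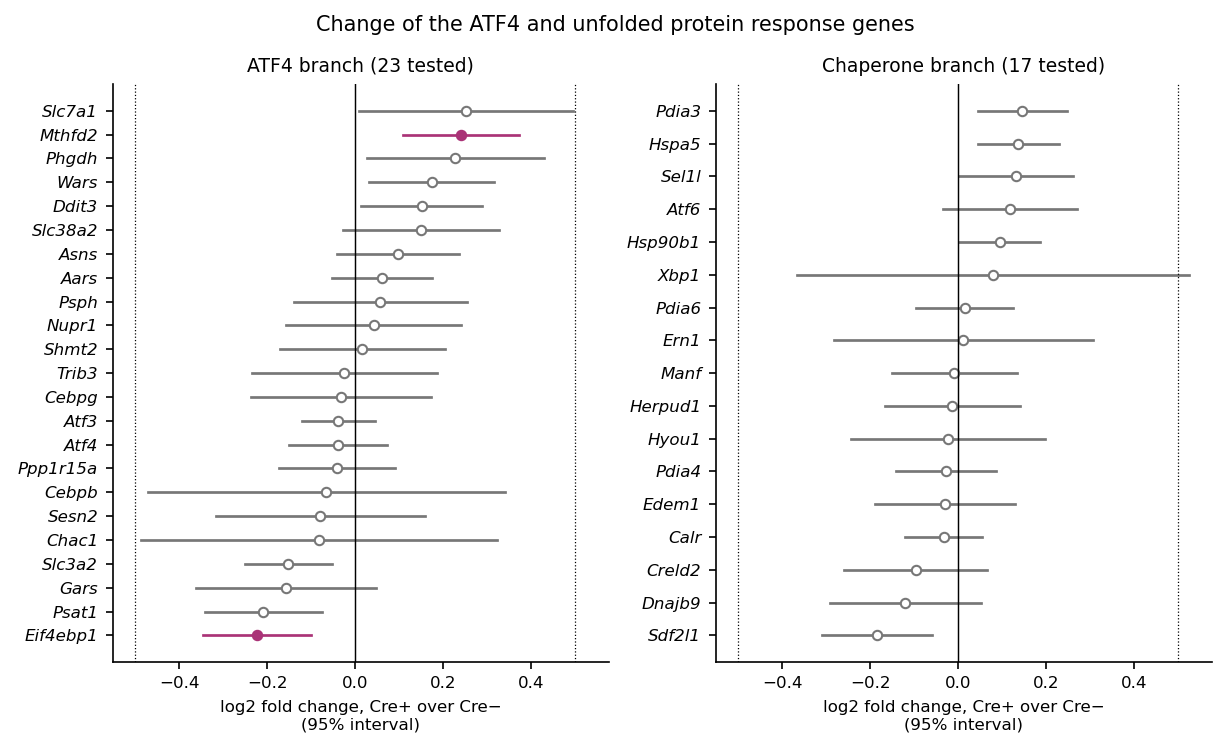
Log2 fold change of each tested member in Cre+ over Cre− microglia (points) with its 95% interval from edgeR's quasi-likelihood fit (lines), sorted by size in the ATF4 branch (23 genes, left) and the chaperone or ER branch (17 genes, right). Filled points are the 2 genes called, Mthfd2 and Eif4ebp1, and dotted lines mark 0.5 on either side of 0, a limit that only the interval of Xbp1 crosses.

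The targeted gene was read first as a check of the labels. Nr1d1 lay at 2.35, 1.20 and 1.64 CPM in the Cre− libraries and at 1.00, 0.945 and 1.08 CPM in the Cre+ libraries, where CPM are counts scaled to a library of 1000000 after TMM normalization. Each Cre+ library was below each Cre− library, but the log2 fold change of -0.77 had an adjusted p of 0.094 in edgeR's test, short of the threshold, and counts from the undeleted exons are included. Without Cre− replicate 2, the lowest of its group, it was -0.98 with an adjusted p of 0.041, and without Cre− replicate 1, the highest, it was -0.50 with an adjusted p of 0.31. Total counts per library ran from 87545868 to 93942161 in Cre− and from 93701215 to 110909129 in Cre+. Markers of microglia were present, with Cd68 at a mean of 4002 CPM and Trem2 at 1614 CPM in Cre−, and their summed level overlapped between the groups (9884 to 10344 against 9744 to 10059 CPM). The homeostatic markers P2ry12 and Tmem119 were near absent in both groups, at 0.610 and 2.95 CPM in Cre−. The 9 neuron markers summed to 3.85 to 4.65 CPM in Cre− and to 2.64 to 2.78 CPM in Cre+, and the 9 fibroblast and mural markers to 1.89 to 2.83 and 0.992 to 1.31 CPM. Both lists were thus lower in each Cre+ library, with Rbfox3 the highest of either list at a mean of 1.03 CPM in Cre−, and their part in the members' values was not tested. The summed levels of the astrocyte, oligodendrocyte lineage and endothelial lists overlapped between the groups, and Gfap was at 0.145 CPM in Cre−. Of the marker genes tested, Itgam (11 microglia markers tested) and Flt1 (3 endothelial markers tested) were called higher, of which Itgam lost its call in each of the 6 fits that left out 1 library and with the trend of GC content and length removed, and Flt1 in 5 of the 6 fits. Of the 2 astrocyte and 4 oligodendrocyte lineage markers tested edgeR called 0, with 0 and 1 at an unadjusted p under 0.05 and 0 called by limma or DESeq2. Of the 11 microglia and 3 endothelial markers, 4 and 2 had an unadjusted p under 0.05, and DESeq2 called 1 and 2. In these bulk libraries, fewer cells of a type and less RNA per cell cannot be told apart.

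Some of these genes carry, in their promoters, letters known to be bound by the factors of each branch. They are shown here because a larger share of the members than of all genes holds them. The members were listed as known genes of these branches, so the list itself favours a larger share, which is not a result of these data. RefSeq promoter windows of GRCm38.p6, from 250 bases before the transcription start to 50 after it, were at hand for 36 of the 42 members and for 27025 genes in all. The letters TGATGNAA, a form of the C/EBP-ATF response element bound by ATF4 with a C/EBP partner, were searched on both strands and occurred in 8 members (22.2%) and in 4.51% of all genes. In Trib3 they lie after the start. In the other 7 they lie upstream, and 6 of these stretches are shown on the strand of the gene, with the match in capitals, which reads in reverse complement in each but Asns.
Asns, chr6:7693214-7693243: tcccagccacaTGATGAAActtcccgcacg
Chac1, chr2:119351038-119351067: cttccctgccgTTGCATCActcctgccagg
Atf3, chr1:191183425-191183454: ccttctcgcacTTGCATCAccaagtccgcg
Nupr1, chr7:126625562-126625591: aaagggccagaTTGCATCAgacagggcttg
Gars, chr6:55037960-55037989: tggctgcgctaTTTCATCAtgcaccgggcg
Herpud1, chr8:94386306-94386335: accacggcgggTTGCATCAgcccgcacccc
The 8 genes with these letters in the window had log2 fold changes from -0.16 to 0.10, with a median of -0.02. None was called by edgeR, limma or DESeq2, and none had an unadjusted p under 0.05.

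The letters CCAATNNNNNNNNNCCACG, the ER stress response element to which ATF6 binds together with NF-Y, occurred on either strand in 5 members (13.9%) and in 0.137% of all genes. They lie upstream of Hspa5, Hsp90b1 (at 2 places), Pdia6, Calr and Creld2, all of them in the group of ER chaperones and oxidoreductases. The capitals mark the match, which is in reverse complement in Calr and Creld2.
Hspa5, chr2:34772020-34772048: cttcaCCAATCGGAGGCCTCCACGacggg
Pdia6, chr12:17266486-17266514: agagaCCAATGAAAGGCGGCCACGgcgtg
Calr, chr8:84847070-84847098: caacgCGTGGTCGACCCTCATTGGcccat
Creld2, chr15:88819515-88819543: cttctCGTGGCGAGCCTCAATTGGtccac
The 5 genes had log2 fold changes from -0.10 to 0.14, with a median of 0.01. None was called by edgeR, limma or DESeq2, and 2, Hspa5 and Hsp90b1, had an unadjusted p under 0.05. A second form of the element, ATTGGNCCACG, was found in Herpud1 alone among the members, with a log2 fold change of -0.01. The letters TGACGTGG, known as the UPR element, and TAGGTCA, the core to which REV-ERB and ROR receptors bind, occurred in 0 of the 36 members, beside 0.714% and 2.97% of all genes. These letters mark matches in a short window and not bound sites.

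None of the 6 transcription factors of the ATF4 branch was called by edgeR, limma or DESeq2, and Ddit3 alone had an unadjusted p under 0.05. Atf4 itself lay at 108, 105 and 101 CPM in the Cre− libraries and at 107, 101 and 97.2 CPM in the Cre+ libraries. Cre+ replicate 1 lay within the Cre− range, replicate 2 just under it and replicate 3 below it, and the log2 fold change was -0.04 with a 95% interval from -0.15 to 0.07. Its partner and target Atf3, a stress-induced factor of the same family, was at 630, 626 and 617 CPM in Cre− and at 616, 620 and 589 CPM in Cre+. Per kilobase of gene length it was the most abundant of all 42 genes in Cre−, at 290 CPM per kilobase, against 44.3 for Atf4. Its log2 fold change was -0.04, with the narrow interval from -0.12 to 0.05. Ddit3, which codes for CHOP, the factor tied to cell death in long stress, was at 38.2, 36.2 and 40.6 CPM in Cre− and at 44.0, 42 and 41.7 CPM in Cre+. The Cre+ libraries all lay higher, but the log2 fold change of 0.15 had an adjusted p of 0.21 in edgeR's test. Nupr1, a small chromatin protein induced by stress, lay at 20.9, 19.7 and 20.6 CPM in Cre− and at 23.9, 18.5 and 20.6 CPM in Cre+, with the highest and the lowest value both in Cre+. The C/EBP partners Cebpb and Cebpg had log2 fold changes of -0.07 and -0.03, which ran from -0.23 to 0.24 and from -0.14 to 0.08 when 1 library was left out. Cebpb was at 8.66 CPM in Cre− replicate 3 against 4.81 and 5.36 CPM in the other two Cre− libraries, and 312 bases of its exons, or 20.7%, are shared with Tmem189 on the other strand, which reads counted without strand cannot tell apart.

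Among the feedback genes and stress effectors, Eif4ebp1 fell. It codes for 4E-BP1, which binds the cap-binding factor eIF4E and holds back translation. It was at 62.8, 65.8 and 64.1 CPM in Cre− and at 56.8, 51.7 and 56.5 CPM in Cre+. The highest Cre+ library was below the lowest Cre− library, with means of 64.2 ± 1.51 and 55.0 ± 2.89 CPM (SD, n = 3 each). This gave a log2 fold change of -0.22 ± 0.06 (standard error), with an adjusted p of 0.035 in edgeR's test. The direction held in each of the 6 fits that left out 1 library, but the call was kept only without Cre− replicate 1, and the adjusted p ran from 0.0057 to 0.14 over all alternatives.

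The other members of this class did not pass the test. Trib3, a pseudokinase that damps ATF4, was at 17.5, 14.5 and 14.3 CPM in Cre− and at 15.9, 15.2 and 14.5 CPM in Cre+, with the Cre+ range inside that of Cre−. Chac1, which breaks down glutathione and is induced by ATF4 and CHOP, was low at 2.22, 2.79 and 2.67 CPM in Cre− and 2.36, 2.12 and 2.78 CPM in Cre+. At this level the interval of its log2 fold change was wide, from -0.49 to 0.32. Ppp1r15a, which codes for GADD34, the subunit that leads a phosphatase to eIF2, and Sesn2, a leucine sensor upstream of mTORC1, had log2 fold changes of -0.04 and -0.08. Ddit4, which codes for REDD1, an inhibitor of mTORC1, was below the filter at 0.099 to 0.301 CPM over the 6 libraries and was not tested.

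The 6 enzymes that make asparagine, serine, glycine and folate-bound one-carbon units went in both directions. Mthfd2, a mitochondrial enzyme of the folate cycle, rose. It was at 83.3, 95.9 and 85.3 CPM in Cre− and at 110, 105 and 98.3 CPM in Cre+. No Cre+ library reached down into the Cre− range, although Cre+ replicate 3 was close to Cre− replicate 2. The means were 88.2 ± 6.79 and 104 ± 5.77 CPM (SD, n = 3 each), which gave a log2 fold change of 0.24 ± 0.06 (standard error) and an adjusted p of 0.035 in edgeR's test. The call was kept without Cre− replicate 2 and without Cre+ replicate 3 and lost in the other 4 fits that left out 1 library, in which the log2 fold change was 0.19 to 0.24.

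The 3 enzymes of the serine pathway did not share a direction. Phgdh, the first step, was at 21.0, 21.9 and 17.7 CPM in Cre− and at 26.1, 22.6 and 22.2 CPM in Cre+, all higher, with a log2 fold change of 0.23 and an adjusted p of 0.20 in edgeR's test. Psat1, the next step, was at 66.8, 65.8 and 66.1 CPM in Cre− and at 53.9, 62.8 and 55.2 CPM in Cre+, all lower. Its log2 fold change was -0.21 (adjusted p = 0.069 in edgeR's test), and it was called in the fit without Cre+ replicate 2, at -0.28. Psph, the last step, had a log2 fold change of 0.06, and 452 of its exon bases overlap Cct6a on the other strand, so that reads of both genes cannot be told apart there. Asns, which makes asparagine and carries an ATF4 element, was at 74.5, 82.0 and 72.5 CPM in Cre− and at 88.6, 79.9 and 76.4 CPM in Cre+. The groups overlapped, with a log2 fold change of 0.10 and an interval from -0.04 to 0.24. Shmt2, the mitochondrial enzyme that passes a carbon unit from serine to folate just before the step of Mthfd2, lay at 0.02.

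**Figure D2:**
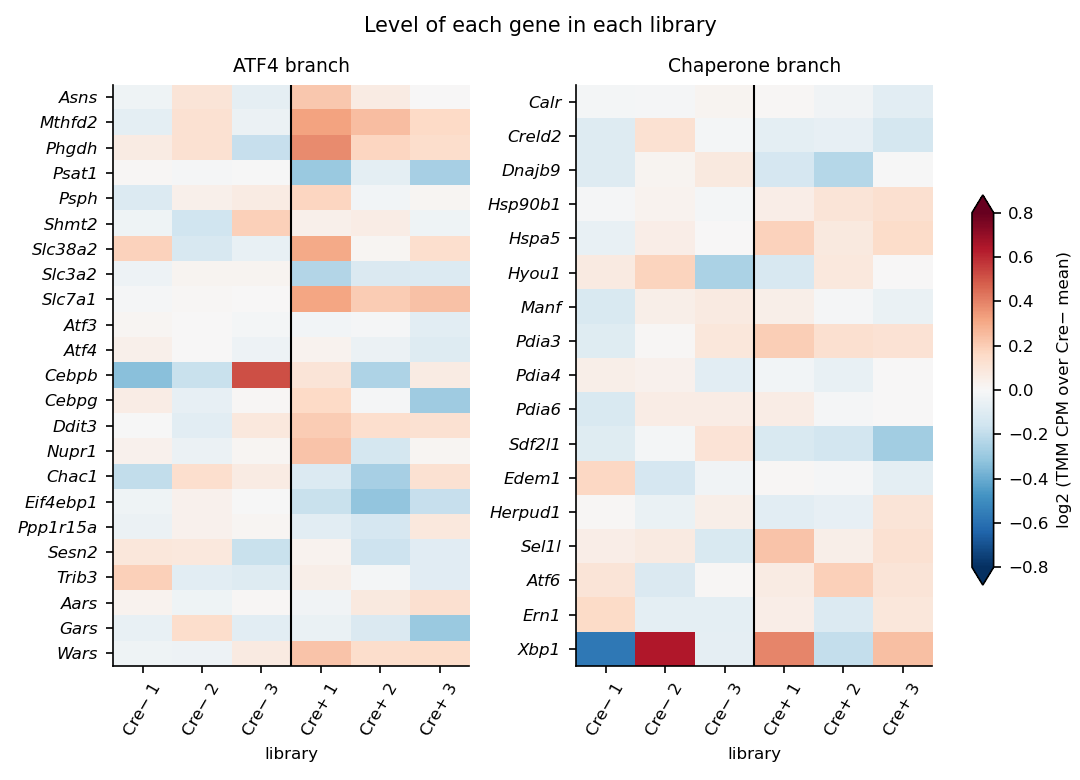
Level of each tested member in each of the 6 libraries, as the log2 ratio of its TMM-normalized CPM to the mean log2 level of the 3 Cre− libraries (colour, red higher and blue lower, cut at 0.8 on either side), with ATF4 branch genes left and ER branch genes right. Mthfd2 and Slc7a1 are red in all 3 Cre+ columns and Eif4ebp1 and Psat1 blue, while Xbp1 has its lowest and highest values in Cre− replicates 1 and 2.

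Of the 4 amino acid transporters, 3 were tested and edgeR and limma called none, while 2 had an unadjusted p under 0.05 and DESeq2 called Slc3a2. Slc3a2, the heavy chain (CD98hc or 4F2hc) that brings several light chains of the SLC7 family to the cell surface, was the most abundant of them per kilobase, at 302, 316 and 316 CPM in Cre− and at 264, 287 and 289 CPM in Cre+. All Cre+ libraries were lower, with a log2 fold change of -0.15 and an adjusted p of 0.075 in edgeR's test. Its longest transcript holds a repeat stretch shared with 117 other genes at 95% identity or more. Slc7a5, the light chain LAT1 through which leucine enters most growing cells, was near absent, at 0.897, 0.682 and 1.53 CPM in Cre− and at 0.438, 0.655 and 1.20 CPM in Cre+, and was not tested. Slc7a1, the carrier of arginine and lysine, lay at 6.69, 6.78 and 6.75 CPM in Cre− and at 8.40, 7.75 and 7.92 CPM in Cre+. It had the highest log2 fold change of the members, 0.25, with an adjusted p of 0.24. Slc38a2, the sodium-coupled carrier of small neutral amino acids, was at 49.0 to 60.8 CPM in Cre− and 54.0 to 65.9 CPM in Cre+, with a log2 fold change of 0.15.

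The light chains that pair with Slc3a2 were read next, and apart from Slc7a5 and Slc7a11 they were chosen after the values were seen. Slc7a11, the cystine and glutamate exchanger xCT and a target of both ATF4 and NRF2, fell from 51.5, 48.4 and 48.3 CPM in Cre− to 32.5, 29.9 and 31.3 CPM in Cre+. The groups were far apart, and the log2 fold change came to -0.66 ± 0.06 (standard error), with an adjusted p of 1.21e-05 in edgeR's test. Slc7a8, the neutral amino acid carrier LAT2, rose from 54.0, 58.4 and 52.5 CPM to 74.9, 63.5 and 70.1 CPM, a log2 fold change of 0.34 with an adjusted p of 0.0075 in edgeR's test. Both calls were kept in each of the 6 fits that left out 1 library. Slc7a7 and Slc7a6, the y+L light chains, had log2 fold changes of -0.09 and -0.08 and were not called, and Slc7a10 had at most 3 counts in any library. Slc3a2 thus stood at 0.90 times its Cre− mean while its measured light chains went in both directions.

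**Figure D3:**
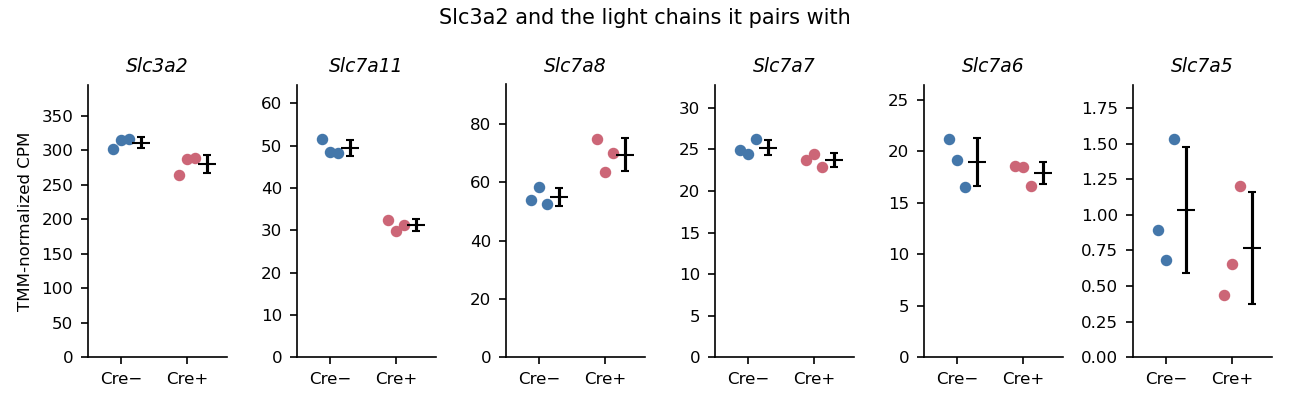
TMM-normalized CPM (vertical axes from 0, a scale of its own for each gene) of Slc3a2 and 5 light chains in the 3 Cre− (blue) and 3 Cre+ (red) libraries, with the mean and SD in black. Slc7a11 fell from 49.4 to 31.2 CPM on average and Slc7a8 rose from 54.9 to 69.5 CPM, while Slc7a5 stayed under 2 CPM in each library.

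The tRNA synthetases charge tRNAs with amino acids. Of the 3 among the members, Wars (tryptophan) was at 30.3, 30.2 and 32.7 CPM in Cre− and at 36.4, 34.3 and 34.4 CPM in Cre+, all higher. Its log2 fold change was 0.17, with an adjusted p of 0.16 in edgeR's test. Aars (alanine) and Gars (glycine) had log2 fold changes of 0.06 and -0.16. For the 17 other cytosolic synthetases, all tested, the median of the log2 fold changes was 0.14, with 14 higher and 3 lower than in Cre−, and 4 were called, all higher, where 2.5% of all genes tested were called higher. These were Iars (0.29, adjusted p = 0.020), Lars (0.24, 0.033), Farsb (0.19, 0.038) and Rars (0.19, 0.046), for isoleucine, leucine, phenylalanine and arginine. The summed level of the list was 1236 to 1268 CPM in Cre− and 1350 to 1378 CPM in Cre+. Of the 17, 10 had an unadjusted p under 0.05, where 19.1% of all genes had one. DESeq2 called 6 of them, where it called 7.79% of all genes, and limma called 3. Some of the 17, Iars and Lars among them, are also on the wider list of ATF4 targets below. The call of Farsb and Lars was lost in each of the 6 fits that left out 1 library, that of Rars in 5 and that of Iars in 3. With the trend of GC content and length removed from each library, Iars stayed called at 0.27, and Lars, Farsb and Rars had log2 fold changes of 0.21, 0.17 and 0.16 with adjusted p of 0.058, 0.075 and 0.096 in edgeR's test.

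In the ER branch, all 17 genes were tested and edgeR and limma called none, while 5 had an unadjusted p under 0.05 and DESeq2 called 1, Sdf2l1. Without the expression filter, edgeR called 1, Pdia3. Among the 11 chaperones and oxidoreductases, 3 lay higher in all Cre+ libraries. Hspa5, which codes for BiP, the main Hsp70 of the ER and the keeper of the sensors, was at 743, 805 and 777 CPM in Cre− and at 881, 818 and 856 CPM in Cre+, with a log2 fold change of 0.14, an interval from 0.04 to 0.23 and an adjusted p of 0.087 in edgeR's test. Pdia3, the disulfide isomerase ERp57 that works with calreticulin on glycoproteins, was at 695, 747 and 790 CPM in Cre− and at 852, 811 and 805 CPM in Cre+, with a log2 fold change of 0.15 and an adjusted p of 0.097, or 0.039 without the expression filter. Hsp90b1, which codes for GRP94, the Hsp90 of the ER, lay at 202 to 209 CPM in Cre− and 212 to 224 CPM in Cre+, with a log2 fold change of 0.09 and an adjusted p of 0.25.

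Sdf2l1, a small partner of BiP that is among the genes most readily induced by ER stress, lay the other way. It was at 134, 143 and 155 CPM in Cre− and at 132, 130 and 119 CPM in Cre+, with a log2 fold change of -0.18 and an adjusted p of 0.089 in edgeR's test. Without Cre− replicate 1 it was called, at -0.24. The other chaperones and folding enzymes, Calr, Pdia4, Pdia6, Dnajb9, Creld2, Manf and Hyou1, had log2 fold changes from -0.12 to 0.01, and their groups overlapped. Calr, the lectin chaperone calreticulin, was measured most tightly of these, at 484 to 498 CPM in Cre− and 461 to 494 CPM in Cre+. Of the degradation factors, Herpud1 and Edem1 lay at -0.01 and -0.03, and Sel1l, the adaptor of the HRD1 ligase, at 0.13 with an adjusted p of 0.26.

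The sensors and factors Atf6, Ern1 and Xbp1 had no unadjusted p under 0.05. Atf6 was at 36.2, 31.1 and 34.0 CPM in Cre− and at 35.3, 38.5 and 36.2 CPM in Cre+, with a log2 fold change of 0.12. Ern1, which codes for IRE1, was low at 5.61, 4.80 and 4.80 CPM in Cre− and at 5.25, 4.68 and 5.39 CPM in Cre+, with a log2 fold change of 0.01. Counts per gene do not tell spliced from unspliced Xbp1.

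Xbp1 was the most uneven member between libraries of the same group. It stood at 24.1, 56.0 and 34.2 CPM in Cre− and at 47.0, 31.4 and 42.3 CPM in Cre+. The highest Cre− library held 2.33 times the lowest, and in Cre+ the ratio was 1.49. The log2 fold change was 0.08 with an interval from -0.37 to 0.53, and it went from -0.17 without Cre− replicate 1 to 0.47 without Cre− replicate 2. The SD of its log2 level within groups was 0.48, against a median of 0.07 for the 4606 genes at 20 CPM or more, and 6 of those varied more. The other genes of the ER branch varied less than Xbp1. Dnajb9, Edem1, Sdf2l1 and Herpud1 had SDs of 0.08 to 0.11, and Pearson's r of their deviations from the group means with those of Xbp1, over 6 libraries, was 0.55, -0.84, 0.19 and -0.21. Some others of the branch, listed like them as downstream of XBP1 and ATF6, followed it more closely at SDs of 0.06 to 0.09. Their r was 0.95 for Hspa5, 0.80 for Pdia6, 0.79 for Creld2 and 0.66 for Manf. Atf6 ran against it with an r of -0.997, and the remaining genes of the branch had an r from -0.31 (Ern1) to 0.51 (Pdia3). In the ATF4 branch r ran from -0.62 for Trib3 to 0.76 for Eif4ebp1. Among the 2481 genes with an SD of at least 0.2, 42 followed Xbp1 with an r of at least 0.95 and 19 ran against it with an r of -0.95 or less. Those that followed it at 20 CPM or more included Pgls, a pentose phosphate enzyme, Spi1, the myeloid factor PU.1, and Uqcrfs1, a subunit of respiratory complex III. These correlations share the same 6 libraries and describe them only, and the genes named were chosen after the values were seen.

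**Figure D4:**
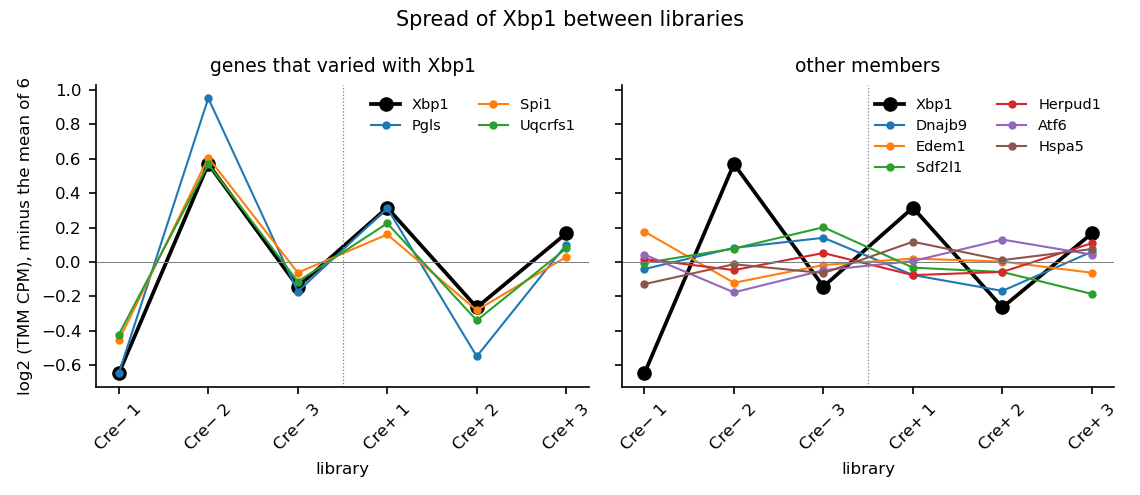
Log2 TMM-normalized CPM minus the mean of the 6 libraries, for Xbp1 (black) with 3 genes that varied with it (left) and with 6 other members (right). Xbp1, Pgls, Spi1 and Uqcrfs1 are lowest in Cre− replicate 1 and highest in Cre− replicate 2, a pattern that Dnajb9, Edem1, Sdf2l1, Herpud1 and Atf6 do not show, while Hspa5 keeps the order of Xbp1 within each group over a smaller range.

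Genes around the 2 branches were described from wider lists, whose counts stand beside the 5.07% of all genes tested that edgeR called, 2.5% higher and 2.56% lower. Of 15 genes for the eIF2 kinases, eIF2, its exchange factor eIF2B and their regulators, all tested, 2 were called, both higher. These were Eif2ak2, which codes for PKR, the kinase activated by double-stranded RNA (0.35, adjusted p = 0.034), and Eif2s1, the eIF2 subunit that the kinases phosphorylate (0.19, adjusted p = 0.033). PERK, coded by Eif2ak3, and GCN2, coded by Eif2ak4, had log2 fold changes of -0.17 and -0.26 and were not called. In this list 5 of the 15 had an unadjusted p under 0.05, beside 19.1% of all genes. DESeq2 called 3, beside 7.79% of all genes. Of 34 other ATF4 target genes, 23 were tested, 2 called higher (Iars and Lars) and 1 lower (Slc7a11), with a median log2 fold change of 0.07. Of the 23, 12 had an unadjusted p under 0.05 and DESeq2 called 6, beside the same shares of all genes. This list shares 9 synthetases with the list above. Gdf15, a stress hormone induced by ATF4 and CHOP, was at a mean of 3.42 CPM in Cre− and 3.59 CPM in Cre+, with a log2 fold change of 0.07.

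Of 32 other ER folding and translocation genes, 31 were tested, with 1 called higher (Sec24d, a cargo adaptor of COPII vesicles, 0.41, adjusted p = 0.011), 1 lower (Txndc11, a thioredoxin-like protein, -0.71, adjusted p = 0.042) and a median log2 fold change of 0.00. The ER-associated degradation list had 17 of 18 genes tested and 0 called by edgeR, limma or DESeq2, 1 at an unadjusted p under 0.05, and a median of 0.01. Among 12 genes that process or resemble the sensors, 11 were tested and 1 was called lower, Atf6b, a relative of Atf6 (-0.29, adjusted p = 0.019). Of the p53 targets, 17 of 18 were tested and 2 were called higher, Pmaip1, which codes for NOXA and is also induced by ATF4 (0.49, adjusted p = 0.0030), and Mdm2 (0.20, adjusted p = 0.039). In the folding, sensor and p53 lists, 7, 1 and 7 genes had an unadjusted p under 0.05, and DESeq2 called 3, 1 and 4. Of these single genes, Pmaip1 kept its call in all 6 fits that left out 1 library, Sec24d lost it in 2, Atf6b and Txndc11 in 4, and Eif2ak2, Eif2s1 and Mdm2 in 5. With the trend of GC content and length removed, Atf6b went to -0.15 (adjusted p = 0.21), and Eif2ak2, Eif2s1 and Mdm2 were not called, at log2 fold changes of 0.31, 0.12 and 0.17.

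The members' differences were set beside a trend with base composition. Over all genes tested, the median log2 fold change fell from 0.07 in genes whose longest transcript had under 40% GC to -0.18 at 60% or more. These outer bins held 0 and 1 members. The bins from 40%, 45%, 50% and 55% held 4, 14, 12 and 9 members. In them, the medians over all genes were 0.05, 0.02, -0.01 and -0.08. The members' own log2 fold changes ran from -0.22 to 0.25. Hspa5, Hsp90b1 and Pdia3, the higher chaperones, had 45.6%, 42.1% and 46.9% GC, and Sdf2l1, the lower one, had 56.7%. With the trend of GC content and transcript length removed from each library, their log2 fold changes became 0.10, 0.04, 0.12 and -0.12, all nearer to 0. Of the other chaperones, Pdia6, Creld2, Manf and Hyou1 also came nearer to 0. Dnajb9, Pdia4 and Calr moved away from it, to -0.18, -0.05 and -0.04. Mthfd2 and Eif4ebp1 stayed called at 0.24 and -0.24. Phgdh, with 57.2% GC, moved from 0.23 to 0.31 (adjusted p = 0.098) and Psat1 from -0.21 to -0.23 (adjusted p = 0.051). Cebpb, with 67.2% GC, changed sign, from -0.07 to 0.19 (adjusted p = 0.65 in edgeR's test). The median of the ATF4 branch became 0.05. The part of GC content in the members' differences was not tested further.

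**Figure D5:**
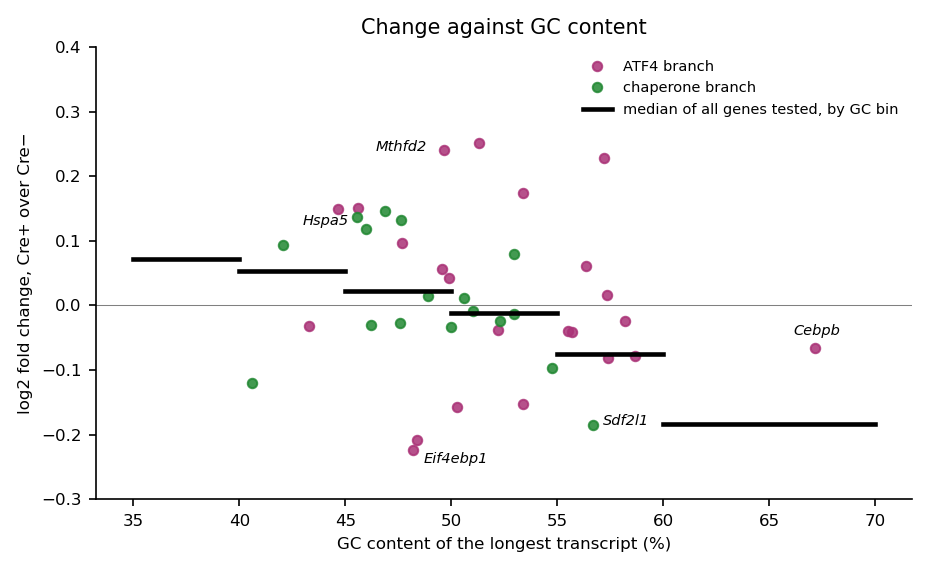
Log2 fold change of each tested member against the GC content of its longest transcript, with the ATF4 branch in purple and the ER branch in green, and the median of all genes tested in 6 GC bins as black bars (the outer bins, under 40% and from 60% on, are drawn 5 and 10 percentage points wide). The bars fall from 0.07 to -0.18. Mthfd2 and Eif4ebp1 stand apart from the bars at their GC content, and so do Phgdh, Slc7a1 and Psat1, which were not called.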

How the data were processed

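RNA of 6 microglia cultures (3 Cre− and 3 Cre+) was sequenced as paired-end reads from cDNA amplified from low input with a kit that does not mark strand. The deposited counts are whole reads per Ensembl gene that the authors made on GRCm38 with STAR and featureCounts. The submitters' processing notes name STAR 2.7.9a and featureCounts 2.0.3, and the methods of the study give other versions. The deposited CPM are these counts over the library total, and the deposited FPKM are the CPM per kilobase of gene length; both were recomputed from the counts only to check their unit.

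The 42 members and the wider lists were chosen with earlier results of these data known. Per member, values are given for each library for those past the threshold and for Atf4, Ddit3, Atf3, Xbp1, Atf6, Ern1, Hspa5, Nupr1, Trib3, Asns and Chac1, and beyond that rule for others whose groups did not overlap or which were not tested. Wider lists are given by counts and by up to 4 genes past the threshold. Beyond that rule Eif2ak3, Eif2ak4, Gdf15 and some cell type markers are named, and other genes not past the threshold are left out. Of the 43 rows with a member's symbol, a second Ddit3 row without counts was dropped. After removal of 356 rRNA genes, each gene with more than 1 CPM in 4 or more libraries entered the quasi-likelihood test of edgeR 4.0.16 (R 4.3.3) on the counts, with TMM normalization, no covariates, Benjamini-Hochberg adjustment and a threshold of 0.05. TMM factors were 0.986 to 1.01. The pipeline was tested on simulated data. Lengths per kilobase are those of the files. GC content, overlaps and similar sequences (blastn 2.17.0, 95% identity over at least 100 bases) came from GENCODE M21. An exact permutation test of 3 against 3 libraries cannot give a p below 0.1, so no single-gene p of that kind is given. As alternatives served library totals, DESeq2's size factors, no expression filter, edgeR's filterByExpr, limma 3.58.1 voomWithQualityWeights, DESeq2 1.42.0, the replicate number as a block, and leaving out each library with the same genes tested; the removal of the GC content and length trend was added after the data were seen. Plots used matplotlib 3.10.9 in python 3.11.15, with numpy 2.4.6 and pandas 2.3.3. The sequence of 1 promoter stretch is not reported here.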

Additional observations from a re-analysis of the deposited data

How the results depend on the processing

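The count of genes called was 1306 without the expression filter (394 higher and 912 lower) and 890 with DESeq2, and 317 to 448 when 1 library was left out. The count of members called was 3 without the expression filter (Mthfd2, Eif4ebp1 and Pdia3), 1 with filterByExpr (Mthfd2), 5 with DESeq2 (Mthfd2, Eif4ebp1, Sdf2l1, Slc3a2 and Psat1), which called 7.79% of all genes, and 0 to 2 when 1 library was left out, with 0 without Cre− replicate 3 and without Cre+ replicate 1. The deviations of same-numbered libraries had an r of 0.01, -0.02 and -0.04. With 3 libraries per group this cannot tell whether the cultures were paired, and the labels do not say. With the replicate number as a block, 430 genes and 1 member, Mthfd2, were called. The median of the ATF4 branch was 0.019 with filterByExpr, 0.050 with the GC content and length trend removed, and -0.047 to 0.047 when 1 library was left out, and that of the ER branch was 0.033 with filterByExpr. Signs changed for members near 0 in the main fit. With filterByExpr, Atf4 was 0.0036, Atf3 0.0046 and Trib3 0.019. With the trend removed, Atf4 was 0.016, Trib3 0.072 and Chac1 0.0030. Cebpb, Sesn2, Ppp1r15a and Herpud1 also became positive with the trend removed, at 0.19, 0.036, 0.020 and 0.010. When 1 library was left out, Xbp1 ran from -0.17 to 0.47, Trib3 from -0.078 to 0.068, Ern1 from -0.028 to 0.083, Nupr1 from -0.063 to 0.13, Chac1 from -0.19 to 0.0041 and Nr1d1 from -0.98 to -0.50, and Nr1d1 passed the threshold only without Cre− replicate 2. The causes of these shifts were not tested. The median of the ER branch ran from -0.011 to 0.014 when 1 library was left out and was 0.0038 with the trend removed, so its sign changed within the spread between libraries. Of the other values for Mthfd2, Eif4ebp1 and the members listed by the rule above, 155 kept their direction and side of the threshold. Another 11, of Mthfd2 and Eif4ebp1, kept their direction and lost the call. Members outside this set are not in these counts. Some of them changed sign, such as Cebpb, which ran from -0.23 to 0.24. Depth limits Chac1, Ddit4 and Slc7a5, the members at under 3 CPM.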
